A study of Xenopus laevis with 12 samples.

Results

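Transcripts of ubiquitin ligases, their substrate receptors, ubiquitin-conjugating enzymes and deubiquitinases were followed in RNA recovered from L-body fractions of Xenopus laevis oocytes. Members were chosen by gene name from the authors' deposited tables of enriched genes, 1 for Staufen and 1 for hnRNPab. A member has a name that begins with a symbol of a ligase, receptor, conjugating enzyme or deubiquitinase family. This gave 101 genes of 82 symbols, among 3968 genes in the authors' deposited tables and 51061 gene identifiers in each count file. Another 6 genes whose names match the pattern belong to 3 symbols that the rule leaves out. All 101 members passed the filter on low counts.

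The series has 12 libraries from oocytes of stages II and III, pooled. L-bodies are large RNA and protein assemblies that hold vegetally localized transcripts. Lysate was fractionated by size exclusion, the fractions rich in L-bodies were combined, and RNA was pulled down with control IgG or with an antibody to Staufen or to hnRNPab, in 4 libraries each. Both targets bind RNA and take part in its transport to the vegetal cortex. All groups share the same fractionation, and no allele or other treatment distinguishes them. The labels do not say how many frogs gave oocytes or whether replicates are separate pools, so a p-value here reflects only how far these libraries scatter, and that scatter may be technical.

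Ubiquitin is activated, passed to a conjugating enzyme and placed on a substrate by a ligase, which gives the reaction its specificity. RING ligases bring the conjugating enzyme to the substrate, HECT ligases first take the ubiquitin themselves, and cullin-RING ligases use exchangeable receptors, among them F-box, BTB and kelch, DCAF and SOCS-box proteins. Deubiquitinases remove the tag. In the frog oocyte and egg, ubiquitin-dependent proteolysis is known above all for the destruction of cyclins and securin during the meiotic divisions, through the anaphase-promoting complex.

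Gene counts per library ran from 14147584 to 22103431, and a count of 0 allowed up to 0.136 to 0.212 CPM (reads of a gene relative to all gene reads of the library). Levels below are CPM scaled with TMM factors, which that limit leaves out. Of the reads assigned to a gene, to none or to several, 16.9% to 19.6% fell in none in the IgG-labelled libraries, 13.4% to 14.8% in the Staufen-labelled ones and 11% to 12.9% in the hnRNPab-labelled ones. The groups did not overlap in this share, and its part in the results was not tested. Of the oocyte markers, gdf9.L, vegt.S and wnt11b.L (3 of 16 symbols) have a name here, and their summed level was 249.2 to 321.3, 356.8 to 437.7 and 710.1 to 787.1 CPM in the IgG-labelled libraries, Staufen and hnRNPab. Of the blood markers, slc4a1.L (1 of 8 symbols) has a name, and lay at 24.97 to 35.67, 27.01 to 40.46 and 104 to 163 CPM in the same order. None of the 9 follicle cell or 9 stromal symbols has a name here. Names exist here only for genes in the authors' tables of enriched genes. A marker without a name may still be present, and the levels of the named ones do not measure the mix of cells. The part of the marker levels in the results was not tested.

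For the members, the library labels disagreed with what the authors' deposited tables list. For each of the 8 members in both of the authors' deposited tables, the Staufen fold change minus the hnRNPab fold change equalled the hnRNPab-labelled libraries minus the IgG-labelled ones to within 0.0142 to 0.0185 on the log2 scale. No difference between 2 labelled groups gave the fold changes of either deposited table themselves. By median absolute gap, the nearest to the authors' deposited Staufen table was labelled hnRNPab minus labelled IgG, at 0.405 (log2) over its 61 members. By the same measure, the nearest to the authors' deposited hnRNPab table was labelled IgG minus labelled hnRNPab, at 0.454 over its 48 members. Correlation ordered them otherwise. With the Staufen table it was 0.483 for labelled hnRNPab minus labelled Staufen, against 0.285 for labelled hnRNPab minus labelled IgG. With the hnRNPab table it was 0.279 for labelled IgG minus labelled Staufen, against 0.249 for labelled IgG minus labelled hnRNPab. Which labelled difference lies nearest was not settled. Groups are therefore named by their labels without assuming that a label gives the antibody used, and the differences between labelled groups are not the enrichment that the authors' tables list.

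In the authors' deposited tables, 53 of the 101 members were listed for Staufen alone, 40 for hnRNPab alone and 8 for both. The shares, 52.5%, 39.6% and 7.92%, stood beside 50.5%, 38.1% and 11.4% over all 3968 listed genes. By family there were 33 RING and RING-like ligases, 24 BTB and kelch proteins, 17 deubiquitinases, 14 F-box proteins, 5 HECT ligases, 4 conjugating enzymes, 2 DCAF proteins and 2 SOCS-box proteins. F-box receptors were listed for Staufen alone in 10 cases and for hnRNPab alone in 4. RING ligases were listed for Staufen alone in 20 cases, for hnRNPab alone in 9 and for both in 4. Deubiquitinases were listed for Staufen alone in 7 cases and for hnRNPab alone in 10, and conjugating enzymes in 1 and 3. None of these splits was tested, because the tables chose the members.

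The RefSeq genes of Xenopus_laevis_v10.1 include 634 with names that match the rule, of which 93 (14.7%) are named among the members. Over all 22425 reference genes with a symbol, 2496 (11.1%) are named in the deposited tables. Shares by family name varied, and the variation was not tested. Of the larger families, 22 of 130 rnf genes (16.9%), 8 of 50 klhl genes (16%), 6 of 45 fbxo genes (13.3%) and 9 of 76 usp genes (11.8%) were listed by name. The reference has 12 otud genes, which encode deubiquitinases of the ovarian tumour domain class, and 7 of these were listed by name. The members include 8 otud genes, since a member whose name is absent from the reference is not matched. Of 19 btbd genes 7 were listed, of 4 spop genes 3, of 3 smurf genes 2 and both mylip genes. No cullin (0 of 13), no UBR ligase (0 of 9), no asb gene (0 of 21), no march gene (0 of 15) and no herc gene (0 of 8) was listed. These families hold few genes, so nothing is read from a count of 0 beside a share of 11.1%. Of 57 reference trim genes 4 were listed by name, while the members include 6 trim genes. Of 53 ube2 genes 4 were listed. These are counts of names, and transcripts outside the authors' tables have no name here.

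In the hnRNPab-labelled libraries against the IgG-labelled ones, 47 members were higher and 37 lower (edgeR quasi-likelihood test, adjusted p below 0.05), where 16.3% and 17.4% of the 20803 genes tested were higher and lower. The Staufen table alone has 53 members, with 45 higher calls and 0 lower. The hnRNPab table alone has 40, with 0 higher calls and 36 lower. Among all tested genes listed for Staufen alone, 1642 of 1978 were called higher, and among those listed for hnRNPab alone 1229 of 1482 were called lower, so most listed genes moved as the members did. DESeq2 called 48 members higher and 37 lower. The median log2 difference was 0.35 over the members and -0.02 over all genes tested. Blocking on the replicate number gave 56 higher and 41 lower, beside 64.6% of all genes called in either direction. The table that lists a member largely fixes its direction in this comparison, so the split by table is no finding about the members. Since the deposited tables selected the members from RNA of the same study, these counts describe the members and are no independent evidence of enrichment. In immunoprecipitated bulk RNA, more molecules bound, more molecules present and a changed mix of cells cannot be told apart.

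Between the Staufen-labelled libraries and the hnRNPab-labelled ones, 26 members were higher and 46 lower in the former, beside 16.5% and 16.3% of all genes. Members of the Staufen table alone gave 42 of the lower calls and 0 higher, and members of the hnRNPab table alone 25 of the higher calls and 0 lower. Among all tested genes listed for Staufen alone, 1584 of 1978 were lower and 7 higher. Of those listed for hnRNPab alone, 824 of 1482 were higher and 9 lower, so most listed genes moved as the members did. Blocking on the number gave 35 and 56, beside 64.6% of all genes called in either direction. Between the Staufen-labelled libraries and the IgG-labelled ones, 7 members were higher and 16 lower, beside 4.45% and 3.33% of all genes. With the replicate number as a block, 20 were higher and 45 lower, beside 39.4% of all genes called in either direction. The 3 comparisons share libraries, so their counts are not independent of each other. Summed over the 40 members of the hnRNPab table alone, the level was 4943.1 to 6531.2 CPM in the IgG-labelled libraries, 4429.9 to 5400.4 in the Staufen-labelled ones and 2731.6 to 3375.8 in the hnRNPab-labelled ones. The 53 members of the Staufen table alone summed to 2501.1 to 2934.4, 2729.7 to 3229.9 and 4608.1 to 5535.2 CPM in the same order.

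**Figure D1:**
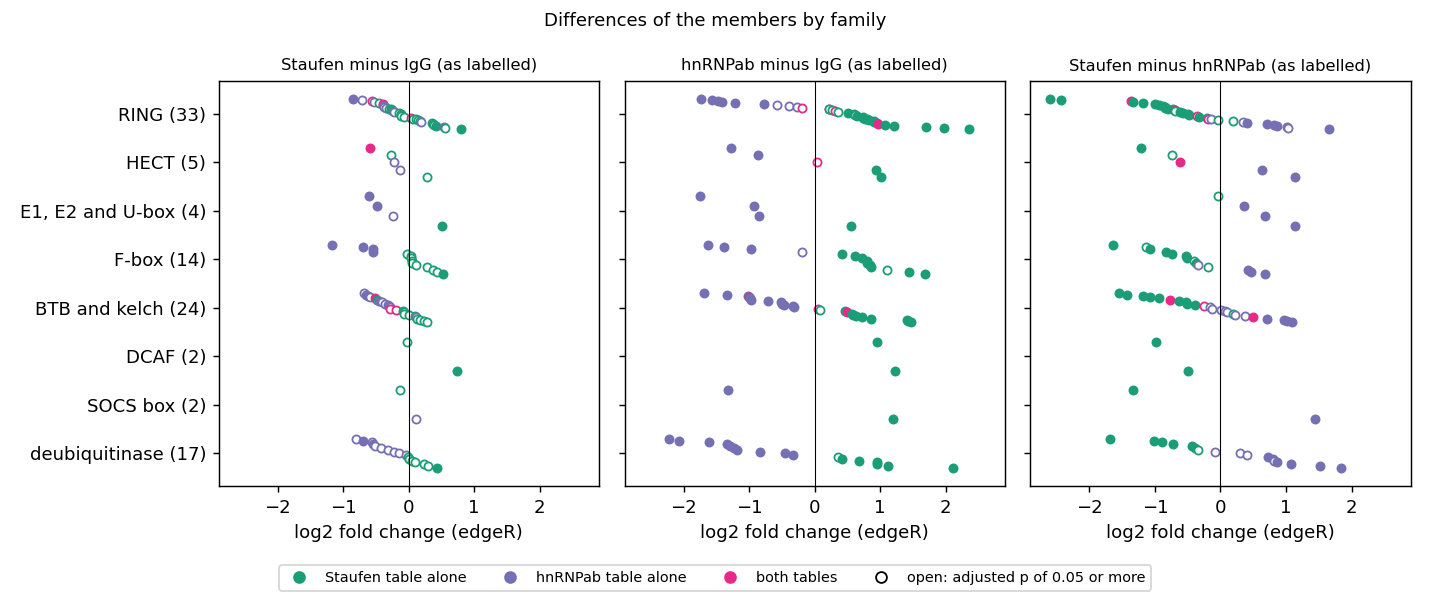
Log2 fold change of every member in the 3 comparisons of labelled groups, 1 point a member, by family, with filled points past an adjusted p of 0.05 and colours for the deposited table that lists the member. In labelled hnRNPab minus labelled IgG, points of the Staufen table alone lie to the right of 0. Points of the hnRNPab table alone lie to the left there. The table that lists a member largely fixes its side in that comparison.

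Conjugating enzymes were few. Of the 4 listed genes, 1 was higher and 3 were lower in labelled hnRNPab than in labelled IgG. The shares over all genes were 16.3% and 17.4%. Here and below, the tables that list the members of a family largely fix such counts, so no trait of a family is read from them. ube2q2.L, which encodes a ubiquitin-conjugating enzyme, was at 209, 268, 278 and 274 CPM in the IgG-labelled libraries 1 to 4, 150.3, 167, 186 and 171 in the Staufen-labelled ones, and 72.6, 79.4, 74.8 and 78.5 in the hnRNPab-labelled ones. The groups followed each other downwards without overlap. It fell by 1.75 on the log2 scale from labelled IgG to labelled hnRNPab (SE 0.103, adjusted p = 2.23e-07) and by 0.61 to labelled Staufen (SE 0.101, adjusted p = 0.00296). ube2w.S encodes an enzyme known from human cells to modify the amino terminus of its substrates. Its levels were 136, 159, 165 and 176 CPM in the IgG-labelled libraries, 108, 118, 116 and 111 in the Staufen-labelled ones and 81.8, 92.5, 97.6 and 81.0 in the hnRNPab-labelled ones. Again no group overlapped another, and the difference from labelled IgG was -0.49 (SE 0.0947, adjusted p = 0.00727) for labelled Staufen and -0.85 (SE 0.0952, adjusted p = 2.80e-05) for labelled hnRNPab.

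The opposite direction was seen in ube2v2.S, whose product is a variant without the catalytic cysteine that works as a partner of an active conjugating enzyme. It lay at 16, 19.5, 17.2 and 17.2 CPM in the IgG-labelled libraries, at 23.7, 27.6, 23.3 and 25.1 in the Staufen-labelled ones and at 29.4, 23.2, 23.7 and 26.4 in the hnRNPab-labelled ones. Every library labelled Staufen or hnRNPab was above every library labelled IgG. The rise over labelled IgG was 0.51 (SE 0.109, adjusted p = 0.0123) for labelled Staufen and 0.56 (SE 0.109, adjusted p = 0.00170) for labelled hnRNPab, and these groups differed by -0.04 (SE 0.108, adjusted p = 0.818).

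Among the 33 RING ligases, 16 were higher and 6 lower in labelled hnRNPab than in labelled IgG, and 11 did not pass. Of all genes, 16.3% were higher and 17.4% lower. Blocking on the number gave 23 and 9 RING ligases, beside 64.6% of all genes called in either direction. The largest rise was that of mylip, known in mammals as the ligase that sends the LDL receptor to degradation. mylip.S was at 94.9, 87.8, 110.3 and 93.8 CPM in the IgG-labelled libraries, 87.7, 76.3, 83.9 and 76.9 in the Staufen-labelled ones and 471, 389.9, 579 and 534 in the hnRNPab-labelled ones. All 4 libraries labelled hnRNPab stood far above the other 8. Their fold over labelled IgG was 5.10, or 2.35 on the log2 scale (SE 0.126, adjusted p = 1.04e-07). Labelled Staufen was below labelled hnRNPab by 2.6 (SE 0.127, adjusted p = 1.27e-07). The second copy, mylip.L, had 3.36, 2.98, 2.91 and 3.64 CPM in the IgG-labelled libraries, 2.48, 1.80, 1.84 and 3.26 in the Staufen-labelled ones and 12.6, 12.4, 11.4 and 14.5 in the hnRNPab-labelled ones. It showed the same order at a low count level, with a log2 rise of 1.98 over labelled IgG (SE 0.202, adjusted p = 1.34e-05). The authors' deposited Staufen table gives log2 fold changes of 2.32 for mylip.S and 2.18 for mylip.L.

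rnf219.L, whose human counterpart ubiquitinates the origin recognition complex at replication origins, was at 11.9, 13.6, 14.5 and 18.5 CPM in the IgG-labelled libraries, 13.3, 16.8, 19 and 26.3 in the Staufen-labelled ones, and 38.3, 41.9, 51.7 and 59.1 in the hnRNPab-labelled ones. The last group was apart, while the first and second overlapped. Its log2 rise over labelled IgG was 1.71 (SE 0.218, adjusted p = 7.47e-05). Labelled Staufen minus labelled IgG was 0.36 (SE 0.215, adjusted p = 0.445, or 0.000394 with the replicate block). rnf2.S encodes Ring1B, the catalytic subunit of Polycomb repressive complex 1 that ubiquitinates histone H2A. It had 48.6, 52.4, 51.1 and 48.1 CPM in the IgG-labelled libraries, 66.7, 65.6, 67.1 and 68.3 in the Staufen-labelled ones and 83.0, 85.6, 90.4 and 75.2 in the hnRNPab-labelled ones. No group overlapped another, and the rises over labelled IgG were 0.42 (SE 0.0750, adjusted p = 0.00473) and 0.74 (SE 0.0751, adjusted p = 1.28e-05).

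RING ligases of the hnRNPab table mostly ran the other way, as most genes listed for hnRNPab alone did. rnf115.S, a cytoplasmic RING ligase, had 203, 183, 182 and 216 CPM in the IgG-labelled libraries, 108, 110.0, 107 and 111 in the Staufen-labelled ones and 64.5, 69.2, 66.4 and 65.2 in the hnRNPab-labelled ones. The 3 labelled groups were separate, and the libraries of labelled Staufen and of labelled hnRNPab lay close together. It fell by 0.85 (SE 0.0743, adjusted p = 8.64e-05) from labelled IgG to labelled Staufen and by 1.56 (SE 0.0756, adjusted p = 5.66e-08) to labelled hnRNPab. rnf103.L encodes a RING ligase of the endoplasmic reticulum membrane. It was at 73.5, 132, 99.4 and 120.1 CPM in the IgG-labelled libraries, 48.5, 84.6, 59.7 and 67.0 in the Staufen-labelled ones and 21.4, 44.7, 29.2 and 32.9 in the hnRNPab-labelled ones. The libraries numbered 1 were the lowest of each group and those numbered 2 the highest. Its fall from labelled IgG to labelled hnRNPab was -1.73 (SE 0.247, adjusted p = 0.000176), and labelled Staufen minus labelled IgG was -0.71 (SE 0.24, adjusted p = 0.105, or 2.68e-12 with the replicate block).

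Of the other RING members of the hnRNPab table, trim33.S and mib1.S fell from labelled IgG to labelled hnRNPab. trim33.S encodes ectodermin, a Smad4 ligase that in Xenopus limits mesoderm induction, and its difference was -1.21 (SE 0.242, adjusted p = 0.00204). mib1.S encodes Mind bomb, which drives the endocytosis of Notch ligands, and its difference was -0.78 (SE 0.119, adjusted p = 0.000297). Of the 20 RING members in the Staufen table alone, rnf126.L (1.21), rnf121.L (0.95), rnf114.S (0.91), rnft2.S (0.84), trim7.S (0.77), siah2.L (0.73), trim39.L (0.64) and rnf19a.S (0.51) were among those that rose in this comparison on the log2 scale. rnft1.L (0.35, adjusted p = 0.178), trim23.S (0.22, adjusted p = 0.345), trim62.L (0.27, adjusted p = 0.133) and rnf169.S (0.62, adjusted p = 0.209) did not pass, and did so with the block (adjusted p of 2.01e-06, 0.00238, 0.00134 and 2.29e-11).

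**Figure D2:**
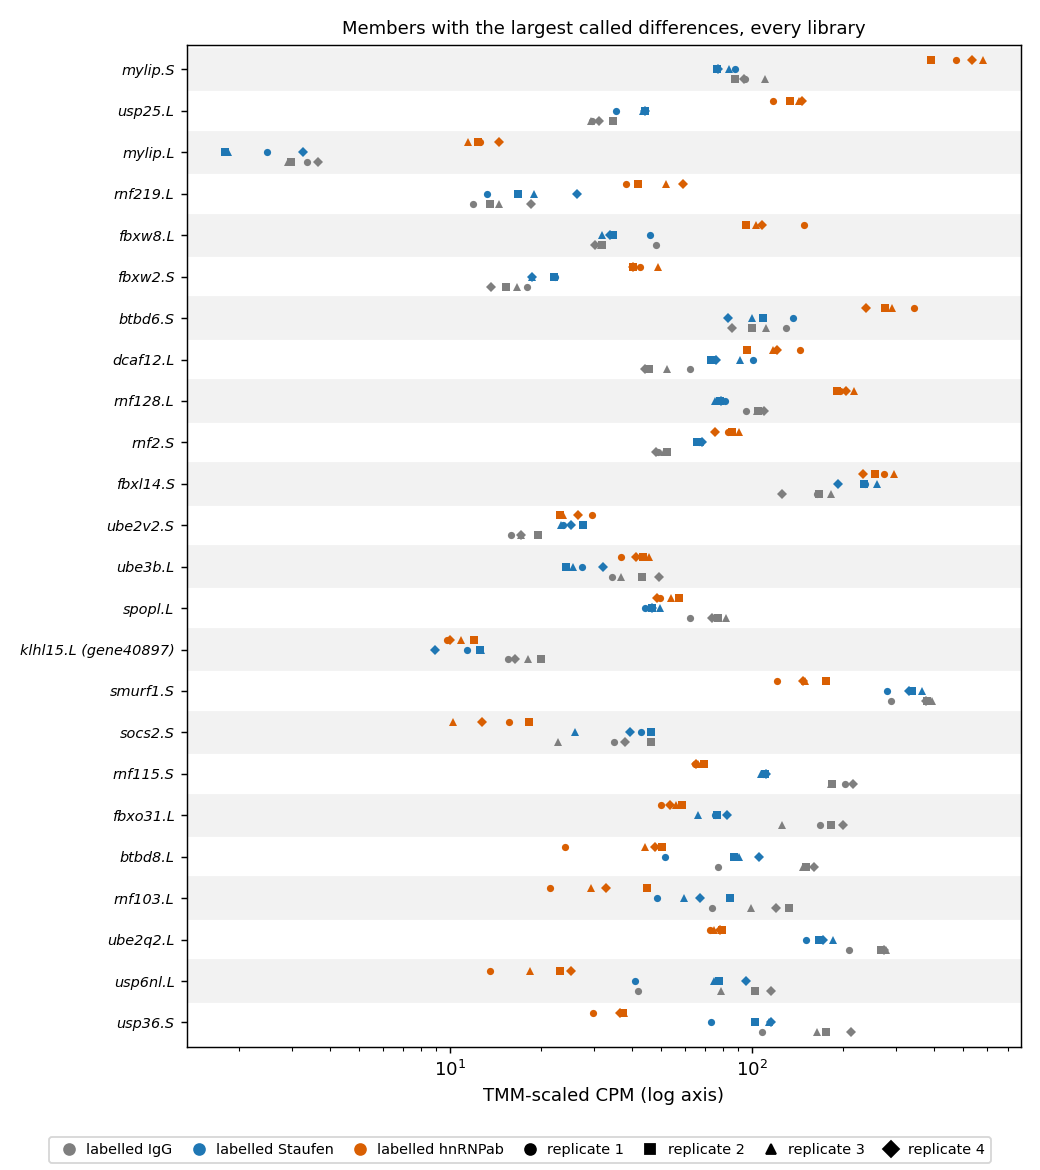
Level of each member named by size of difference in every library, in TMM-scaled CPM on a log axis, with colours for the labelled groups and symbols for the replicate numbers. mylip.S and usp25.L have their 4 libraries labelled hnRNPab on the right, and usp36.S and usp6nl.L have them on the left.

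The 5 HECT ligases divided. smurf1 encodes a ligase of Smads and RhoA that restrains BMP signalling. smurf1.S was at 288, 379.5, 393 and 376 CPM in the IgG-labelled libraries, 278, 337, 365 and 330.0 in the Staufen-labelled ones and 121, 175, 149.9 and 148 in the hnRNPab-labelled ones. The last group lay below all others, with a difference from labelled IgG of -1.27 (SE 0.135, adjusted p = 1.80e-05). smurf1.L differed in the same comparison by -0.86 (SE 0.176, adjusted p = 0.00230). wwp1.L, of the NEDD4 family, had 36.4, 46.1, 49.6 and 46.0 CPM in the IgG-labelled libraries, 34.6, 37.1, 39.3 and 36.1 in the Staufen-labelled ones and 77.4, 79.1, 94.7 and 88.8 in the hnRNPab-labelled ones. This was a rise of 0.93 (SE 0.108, adjusted p = 3.67e-05), with labelled hnRNPab above every other library. hectd2.S rose by 1.02 (SE 0.275, adjusted p = 0.0123).

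The fifth, ube3b.L, is in both of the authors' deposited tables, with log2 fold changes of 1.5 for Staufen and 1.45 for hnRNPab. Its levels were 34.4, 43.3, 36.8 and 49.1 CPM in the IgG-labelled libraries, 27.3, 24.2, 25.4 and 32.2 in the Staufen-labelled ones and 36.8, 43.7, 45.6 and 41.3 in the hnRNPab-labelled ones. Labelled IgG and labelled hnRNPab overlapped, with a difference of 0.03 (SE 0.132, adjusted p = 0.893). Labelled Staufen lay below both, by 0.58 (SE 0.133, adjusted p = 0.0185) and 0.62 (SE 0.133, adjusted p = 0.00345) on the log2 scale.

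Of the 14 F-box receptors, 9 were higher and 3 lower in labelled hnRNPab than in labelled IgG, beside 16.3% and 17.4% of all genes. All 9 that rose are in the Staufen table alone, and most genes so listed rose. fbxw8.L encodes the F-box protein that joins cullin 7 ligases. It was at 47.9, 31.9, 31.5 and 30.2 CPM in the IgG-labelled libraries, 45.7, 34.5, 31.9 and 33.9 in the Staufen-labelled ones and 149, 95.6, 103 and 108 in the hnRNPab-labelled ones. The library numbered 1 was the highest of each group, and labelled hnRNPab was apart. The rise over labelled IgG was 1.69 (SE 0.189, adjusted p = 2.75e-05). For fbxw2.S the levels were 17.9, 15.3, 16.7 and 13.6 CPM in the IgG-labelled libraries, 22.3, 22.2, 18.7 and 18.7 in the Staufen-labelled ones and 42.4, 40.4, 48.6 and 40.4 in the hnRNPab-labelled ones. No group overlapped another. The rise was 1.44 (SE 0.116, adjusted p = 2.26e-06) for labelled hnRNPab, and the difference 0.37 for labelled Staufen (SE 0.115, adjusted p = 0.0802, or 0.000347 with the replicate block).

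fbxl14 encodes Ppa, which in Xenopus embryos sends the neural crest factor Slug to degradation. fbxl14.S was at 164, 166, 182 and 126 CPM in the IgG-labelled libraries, 236, 234, 258 and 193 in the Staufen-labelled ones and 274, 254, 294 and 233 in the hnRNPab-labelled ones. Labelled Staufen and labelled hnRNPab were above labelled IgG and overlapped each other. The rises were 0.53 (SE 0.127, adjusted p = 0.0240) and 0.72 (SE 0.127, adjusted p = 0.000799). fbxl14.L rose by 0.84 in the hnRNPab-labelled libraries (SE 0.155, adjusted p = 0.00112), and differed by 0.44 in the Staufen-labelled ones (SE 0.155, adjusted p = 0.123, or 1.46e-08 with the block).

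The F-box genes of the hnRNPab table had their highest levels in the IgG-labelled libraries, as most members of that table alone did. fbxo31.L, whose human counterpart sends cyclin D1 to degradation, had 167, 183, 125 and 200.2 CPM in the IgG-labelled libraries, 75.1, 76.3, 66.0 and 82.8 in the Staufen-labelled ones and 49.9, 58.7, 55.9 and 53.3 in the hnRNPab-labelled ones. The lowest library labelled IgG was above every other library. This was the largest called fall among the members from labelled IgG to labelled Staufen, -1.17 (SE 0.133, adjusted p = 0.000340). To labelled hnRNPab the fall was -1.63 (SE 0.134, adjusted p = 2.55e-06). fbxl4.S, of the mitochondrial outer membrane in mammals, fell from labelled IgG by 0.55 to labelled Staufen (SE 0.0823, adjusted p = 0.00167) and by 0.96 to labelled hnRNPab (SE 0.0829, adjusted p = 3.45e-06).

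The 24 BTB and kelch proteins serve as receptors of cullin 3 ligases or share their BTB domain. Of these, 10 were higher and 12 lower in labelled hnRNPab than in labelled IgG, beside 16.3% and 17.4% of all genes. btbd6.S encodes a cullin 3 receptor that in zebrafish acts on the repressor Plzf during neurogenesis. It was at 129, 99.9, 111 and 85.4 CPM in the IgG-labelled libraries, 136, 108, 99.6 and 83.0 in the Staufen-labelled ones and 342, 274, 289.8 and 239 in the hnRNPab-labelled ones. The first and second group overlapped, and the third was apart, with a rise over labelled IgG of 1.43 (SE 0.171, adjusted p = 4.47e-05). btbd8.L was at 77.3, 150.1, 148 and 159.7 CPM in the IgG-labelled libraries, 51.4, 87.1, 90.5 and 105 in the Staufen-labelled ones and 24.0, 50.1, 44.1 and 47.5 in the hnRNPab-labelled ones. The library numbered 1 was the lowest of each group. Its fall to labelled hnRNPab was -1.69 (SE 0.291, adjusted p = 0.000692). Labelled Staufen minus labelled IgG was -0.68 (SE 0.283, adjusted p = 0.205, or 5.92e-12 with the replicate block).

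spopl.L encodes a close relative of Spop, the cullin 3 receptor of many nuclear substrates. It was at 62.2, 77.1, 81.7 and 73.4 CPM in the IgG-labelled libraries, 44.0, 46.5, 49.5 and 46.4 in the Staufen-labelled ones and 49.4, 57.0, 53.9 and 48.5 in the hnRNPab-labelled ones. Labelled Staufen and labelled hnRNPab lay below labelled IgG, by 0.66 (SE 0.0975, adjusted p = 0.00156) and 0.50 (SE 0.0972, adjusted p = 0.00171). spop.L, in the Staufen table, rose by 0.57 in the hnRNPab-labelled libraries against labelled IgG (SE 0.124, adjusted p = 0.00351). klhl8.L is in both of the authors' deposited tables, with log2 fold changes of 0.868 for Staufen and 1.86 for hnRNPab. Its levels were 153, 209.7, 202 and 233 CPM in the IgG-labelled libraries, 119, 144, 151 and 144 in the Staufen-labelled ones and 86.4, 113, 102 and 96.1 in the hnRNPab-labelled ones. The groups stepped down without overlap, by 0.51 (SE 0.131, adjusted p = 0.0324) and by 1.01 (SE 0.132, adjusted p = 9.26e-05) from labelled IgG.

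The name klhl15.L, a cullin 3 receptor, belongs to 4 gene identifiers that were counted apart. gene13592, in both deposited tables, was at 159, 180.1, 184 and 167 CPM in the IgG-labelled libraries, 145, 142, 150.2 and 131 in the Staufen-labelled ones and 239, 222, 282 and 226 in the hnRNPab-labelled ones. It rose by 0.49 in labelled hnRNPab against labelled IgG (SE 0.0926, adjusted p = 0.00137). The other 3 are in the hnRNPab table only, and each fell in the same comparison. gene40897 had 15.6, 20.0, 18.1 and 16.4 CPM in the IgG-labelled libraries, 11.4, 12.6, 12.7 and 8.94 in the Staufen-labelled ones and 9.74, 12, 10.8 and 9.98 in the hnRNPab-labelled ones. Its difference was -0.72 (SE 0.141, adjusted p = 0.00179), that of gene14232 -0.33 (SE 0.103, adjusted p = 0.0284) and that of gene50391 -0.47 (SE 0.145, adjusted p = 0.0252). These entries may be copies, parts or neighbours of 1 gene, and reads between them could be split by the counting, so their opposite directions are uncertain.

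Receptors of the DCAF and SOCS-box families made up 4 members. dcaf12.L encodes a cullin 4 receptor that in human cells recognises glutamates at the carboxyl terminus. It was at 62.4, 45.6, 52.2 and 44.0 CPM in the IgG-labelled libraries, 101, 72.8, 90.8 and 76.1 in the Staufen-labelled ones and 144, 95.8, 117 and 121 in the hnRNPab-labelled ones. Labelled Staufen and labelled hnRNPab were above labelled IgG, by 0.74 (SE 0.153, adjusted p = 0.0110) and 1.23 (SE 0.155, adjusted p = 6.83e-05), and they overlapped each other in 1 library. Among the members named by size, this was the largest rise in the Staufen-labelled libraries. rnft2.S, outside that selection, rose more against labelled IgG, by 0.79 (adjusted p = 0.0203). It was called in 8 of the 12 fits that each left out 1 library. dcaf6.L rose by 0.96 in labelled hnRNPab (SE 0.132, adjusted p = 0.000138).

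Socs proteins bind cytokine receptors or their kinases and restrain JAK-STAT signalling. socs1.S was at 78.7, 52.1, 58.9 and 61.9 CPM in the IgG-labelled libraries, 74.3, 48.9, 55.5 and 50.7 in the Staufen-labelled ones and 179, 99.8, 147 and 150.1 in the hnRNPab-labelled ones. socs2.S had 34.8, 46.3, 22.8 and 38.1, then 42.7, 46.1, 25.9 and 39.3, then 15.7, 18.2, 10.3 and 12.7 CPM in the same groups. In both genes labelled IgG and labelled Staufen overlapped and labelled hnRNPab was apart, above them for socs1.S and below them for socs2.S. The differences from labelled IgG were 1.20 (SE 0.193, adjusted p = 0.000431) and -1.32 (SE 0.246, adjusted p = 0.00124).

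Of the 17 genes counted as deubiquitinases, 6 were higher and 10 lower in labelled hnRNPab than in labelled IgG. The shares over all genes were 16.3% and 17.4%. usp25.L, a ubiquitin-specific protease, was at 29.5, 34.6, 29.2 and 31.1 CPM in the IgG-labelled libraries, 35.3, 44.3, 43.4 and 44.1 in the Staufen-labelled ones and 117, 134, 142 and 147 in the hnRNPab-labelled ones. The groups stepped up without overlap. The rise over labelled IgG was 0.42 (SE 0.104, adjusted p = 0.0266) for labelled Staufen and 2.12 (SE 0.107, adjusted p = 7.95e-08) for labelled hnRNPab, a fold of 4.34. usp36.S encodes a protease that in human cells works in the nucleolus. It had 108, 175, 163 and 212 CPM in the IgG-labelled libraries, 73.1, 102, 113 and 116 in the Staufen-labelled ones and 29.7, 37.3, 37.7 and 36.6 in the hnRNPab-labelled ones. Labelled hnRNPab lay below every other library, by 2.22 against labelled IgG (SE 0.203, adjusted p = 5.62e-06), the largest fall of any member. The authors' deposited hnRNPab table lists usp36.S at a log2 fold change of 2.10.

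usp6nl.L is counted here by its name only, since it encodes a GTPase-activating protein of Rab proteins and not a protease. It was at 41.7, 102, 78.6 and 116 CPM in the IgG-labelled libraries, 41, 77.4, 74.5 and 95.5 in the Staufen-labelled ones and 13.6, 23.2, 18.4 and 25.2 in the hnRNPab-labelled ones. Library 1 was the lowest and library 4 the highest of each group. Its fall to labelled hnRNPab was -2.07 (SE 0.333, adjusted p = 0.000415). Among the other usp genes of the hnRNPab table, usp13.L (-1.61), usp12.S (-1.29), usp3.S (-1.19) and usp12.L (-0.83) fell on the log2 scale in the same comparison, and of those in the Staufen table usp42.L (0.68) and usp49.S (0.42) rose.

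The otud genes divided by the deposited table that lists them, as most listed genes did, so no trait of the family is read from this. otud1.S (1.12), otud1.L (0.95) and otud3.L (0.94), of the Staufen table, rose on the log2 scale in the hnRNPab-labelled libraries against the IgG-labelled ones. otud7a.S (-1.33), otud7a.L (-1.23), otud7b.S (-0.46) and otud7b.L (-0.34), of the hnRNPab table, fell. Otud7b removes ubiquitin chains in NF-kappaB signalling in mammals. otud5.S, also of the Staufen table, differed by 0.35 (SE 0.140, adjusted p = 0.0744, or 7.72e-06 with the block).

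Besides ube3b.L and klhl8.L, the members in both deposited tables included 3 RING ligases named by the size of their deposited values. rnf165.L has the highest fold changes of any member in the authors' deposited tables, 2.62 for Staufen and 2.80 for hnRNPab on the log2 scale. In the libraries its level was 1.25, 1.52, 1.51 and 0.855 CPM for labelled IgG, 0.828, 0.762, 1.18 and 0.718 for labelled Staufen and 1.85, 0.687, 1.04 and 0.903 for labelled hnRNPab. All groups overlapped, and the differences from labelled IgG were -0.55 (SE 0.352, adjusted p = 0.496) and -0.19 (SE 0.347, adjusted p = 0.739). rnf166.S, at 1.83 and 1.6 in the authors' deposited tables, lay at 14.6, 14.1, 20.0 and 19 CPM in the IgG-labelled libraries, 15.4, 16.1, 19 and 18.7 in the Staufen-labelled ones and 20.0, 18.9, 21.2 and 18.7 in the hnRNPab-labelled ones. These groups overlapped too, with differences from labelled IgG of 0.03 (SE 0.135, adjusted p = 0.983) and 0.22 (SE 0.135, adjusted p = 0.257, or 0.0162 with the block).

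rnf128.L encodes a membrane RING ligase known as Grail in T cells, and the authors' deposited tables list it at 1.89 for Staufen and 0.904 for hnRNPab. It was at 95.7, 104, 104 and 109 CPM in the IgG-labelled libraries, 81.4, 78.0, 75.6 and 78.8 in the Staufen-labelled ones and 195, 190.5, 217 and 205 in the hnRNPab-labelled ones. The 3 groups were separate. It was lower by 0.40 in labelled Staufen (SE 0.0720, adjusted p = 0.00512) and rose by 0.97 in labelled hnRNPab (SE 0.0723, adjusted p = 1.21e-06) against labelled IgG. The members with the lowest fold changes in the authors' deposited tables were trim7.S at 0.861 and klhl8.L at 0.868 for Staufen and mib1.S at 0.862 and kbtbd2.L at 0.877 for hnRNPab.

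The deposited table that lists a member largely fixes whether labelled hnRNPab lies above or below labelled IgG, so the order of the group means is given as a description. Of the 40 members in the hnRNPab table alone, 31 were highest in labelled IgG, intermediate in labelled Staufen and lowest in labelled hnRNPab, an order that 23.2% of all genes had. Of the 53 in the Staufen table alone, 32 were lowest in labelled IgG and highest in labelled hnRNPab with labelled Staufen between, beside 20.5% of all genes, and 19 had labelled Staufen as the lowest and labelled hnRNPab as the highest, beside 19.9%. Neighbours in these orders often overlapped, above all labelled IgG and labelled Staufen, which were separate for 29 members (9 higher and 20 lower, beside 6.67% and 5.67% of all genes). The shares over the listed genes alone are not given here.

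Libraries of the same replicate number moved together, and this touched the comparison of labelled Staufen with labelled IgG. Within numbers, 26 members were higher in all 4 pairs and 54 lower in all 4, beside 24.4% and 26.7% of all genes. For these pairs too, the shares over the listed genes alone are not given. With the number as a block, 42 members were called that the model without it did not call, 13 higher and 29 lower. usp13.L, a deubiquitinase, was at 114, 197, 217 and 219 CPM in the IgG-labelled libraries and at 74.1, 111, 121 and 120.3 in the Staufen-labelled ones. Both groups were lowest in library 1, they overlapped, and labelled Staufen was the lower one in each number. Its difference of -0.81 (SE 0.245) had an adjusted p of 0.0690 without the block and 4.81e-14 with it. With the block, 14 of the 24 BTB and kelch proteins were lower and 2 higher, against 5 and 0 without it, and 13 of the 33 RING ligases were lower and 8 higher, against 2 and 3. Over all genes 39.4% were called with the block in either direction, and 3.33% were lower and 4.45% higher without it. With the block, 69.2% of all genes listed for hnRNPab alone were lower and 6.21% higher. For genes in both tables these shares were 53.8% and 13.2%, and for those of Staufen alone 14.05% and 31.2%. Of the BTB and kelch members, 11 are listed for hnRNPab alone, 3 for both and 10 for Staufen alone, so no trait of a family is read from these counts.

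**Figure D3:**
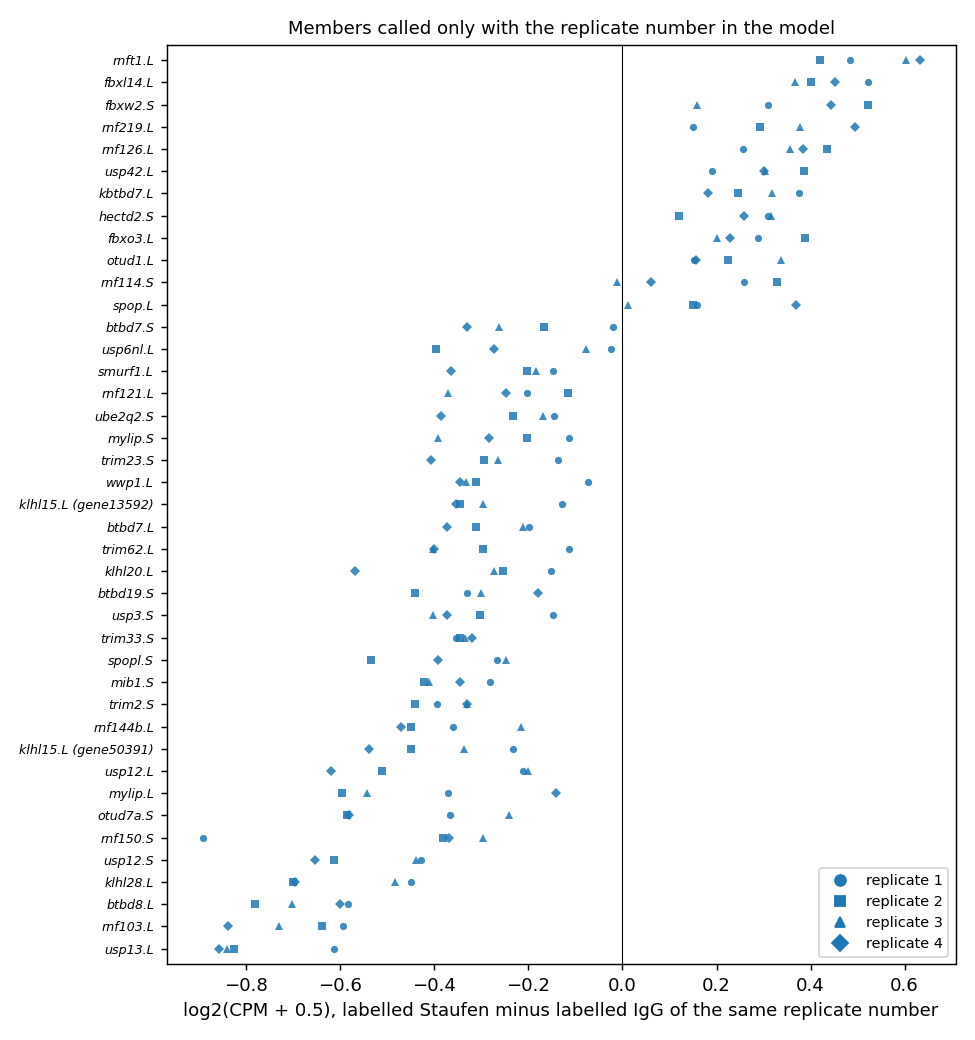
Labelled Staufen minus labelled IgG within each replicate number, in log2(CPM + 0.5), for 41 of the 42 members called in this comparison only with the replicate number in the model. The 4 symbols of a member lie mostly on 1 side of 0, between -0.893 and 0.632.

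Calls in labelled Staufen against labelled IgG were easily lost. Of the 23 calls made without the block, 10 were kept whichever library was left out: dcaf12.L, ube2v2.S, rnf2.S, fbxo31.L, rnf115.S, spopl.L, ube2q2.L, ube2w.S, fbxl4.S and rnf128.L. Without IgG 2 the calls of fbxl14.S, ube3b.L, klhl8.L, usp36.S and gene40897 were lost, without IgG 3 those of usp25.L, klhl8.L, usp36.S and gene40897, and without IgG 4 those of fbxl14.S, ube3b.L, usp25.L, klhl8.L and usp36.S. Leaving out Staufen 1, Staufen 3 or Staufen 4 ended the call of usp36.S too, and leaving out Staufen 2 ended all these except gene40897. Further losses were fbxl14.S without Staufen 1 or 3, ube3b.L and usp25.L without Staufen 3, usp25.L without Staufen 4, klhl8.L without Staufen 1 or 4, and usp36.S without hnRNPab 2, 3 or 4. These lists are not complete, and the calls of klhl24.S, fbxo30.L, otud7b.S, rnft2.S and gene14232 were also among those lost. klhl24.S was called in only 2 of the 12 fits and fbxo30.L in 3. The highest adjusted p among the members named here was 0.125, for usp36.S. With the block, each of the 23 was kept in all 12 such fits. Of the 84 calls in labelled hnRNPab against labelled IgG, 74 were kept in all 12 fits. Those of gene14232 and gene50391 (klhl15.L) and of otud7a.S, otud7b.L and otud7b.S were among the 10 that were not. The call of gene14232 was lost without IgG 1, 2 or 3 or hnRNPab 2 or 4, that of gene50391 without IgG 2 or 3 or hnRNPab 1 or 4, that of otud7a.S without IgG 2 or 4 or hnRNPab 1, 3 or 4, that of otud7b.S without IgG 2 or 3 or hnRNPab 4, and that of otud7b.L in 9 of 12 fits, all but those without IgG 4, Staufen 4 or hnRNPab 1. Their adjusted p reached 0.121, and with the block 94 of 97 were kept. Of the 72 calls in labelled Staufen against labelled hnRNPab, 57 were kept.

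Both homeologs, the .L and .S copies left by the genome duplication of X. laevis, were listed for 16 symbols. The ratio of the .L to the .S copy was compared between groups with limma over 491 such pairs of the deposited tables. It differed for 5 of the 16 member pairs in labelled Staufen against labelled IgG, for 9 in labelled hnRNPab against labelled IgG and for 9 in labelled Staufen against labelled hnRNPab. With the replicate block the counts were 7, 12 and 13, and the shares over all pairs with the block are not given here. Over all 491 pairs the shares without the block were 20.6%, 60.1% and 51.9%, beside which nothing is read from the counts of members. These shares are no measure for the counts with the block. Near-identical copies can exchange reads, and differences between them are uncertain. Transcript lengths were not used, so a ratio does not give the relative amounts of the copies.

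For ube2q2 the ratio (.L over .S, each at CPM + 0.5) went down, from 1.47, 1.37, 1.39 and 1.33 in the IgG-labelled libraries to 1.17, 1.00, 1.05 and 1.09 in the Staufen-labelled ones and 0.878, 0.751, 0.732 and 0.783 in the hnRNPab-labelled ones. Every group was separate, with log2 differences from labelled IgG of -0.37 (SE 0.0857, limma adjusted p = 0.0106) and -0.83 (SE 0.0857, adjusted p = 5.02e-06). For spopl it was 0.695, 0.564, 0.572 and 0.476 in the IgG-labelled libraries, 0.594, 0.495, 0.412 and 0.396 in the Staufen-labelled ones and 1.28, 1.01, 0.962 and 0.856 in the hnRNPab-labelled ones. Labelled hnRNPab was above all other libraries, by 0.83 over labelled IgG (SE 0.164, adjusted p = 0.000901). The ratio of smurf1 was 0.783, 0.776, 0.745 and 0.885 in the IgG-labelled libraries, 0.730, 0.759, 0.707 and 0.784 in the Staufen-labelled ones and 0.872, 1.04, 1.05 and 1.26 in the hnRNPab-labelled ones. Labelled hnRNPab exceeded labelled IgG by 0.40 (SE 0.110, adjusted p = 0.00801), with an overlap of 1 library.

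In 3 pairs the authors' deposited tables list the copies differently. The table that lists a copy largely fixes its direction in labelled hnRNPab against labelled IgG. The differences of these 3 ratios in that comparison are therefore descriptions and no independent evidence that the copies differ. In labelled Staufen against labelled IgG the listing table goes with the direction too. With the block, 69.2% of all genes listed for hnRNPab alone were lower there and 6.21% higher. For genes in both tables these shares were 53.8% and 13.2%, and for those of Staufen alone 14.05% and 31.2%. The same limit therefore holds for the 3 ratios in that comparison. fbxo30.L is in the hnRNPab table and fbxo30.S in the Staufen table. The fbxo30 ratio was 1.31, 1.48, 1.46 and 1.78 in the IgG-labelled libraries, 0.968, 1.07, 0.923 and 1.09 in the Staufen-labelled ones and 0.874, 0.933, 0.955 and 1.21 in the hnRNPab-labelled ones. All libraries labelled IgG were above all others, and the log2 differences were -0.57 (SE 0.124, adjusted p = 0.00916) and -0.60 (SE 0.124, adjusted p = 0.00118). btbd7.L is in the hnRNPab table alone and btbd7.S in both tables. The btbd7 ratio was 0.840, 0.969, 0.933 and 1.14 in the IgG-labelled libraries, 0.742, 0.876, 0.967 and 1.11 in the Staufen-labelled ones and 0.598, 0.611, 0.628 and 0.830 in the hnRNPab-labelled ones, with labelled hnRNPab below labelled IgG by 0.55 (SE 0.148, adjusted p = 0.00707). Within that last group library 4 stood above the others, as it did in each group.

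rnf144b.L is in both tables and rnf144b.S in the Staufen table alone. The rnf144b ratio was 2.63, 3.22, 2.28 and 3.51 in the IgG-labelled libraries, 1.77, 2.24, 2.01 and 2.32 in the Staufen-labelled ones and 2.01, 2.22, 1.71 and 1.85 in the hnRNPab-labelled ones. Labelled hnRNPab lay below labelled IgG throughout, by 0.56 (SE 0.146, adjusted p = 0.00538). The difference of -0.47 in labelled Staufen against labelled IgG (SE 0.146, adjusted p = 0.0412, or 0.00225 with the block) was lost without IgG 2 or 4, any of Staufen 1 to 3, hnRNPab 1 or hnRNPab 4, with an adjusted p of up to 0.113.

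Among the remaining pairs, otud7b had a ratio of 0.851, 0.772, 0.890 and 0.890 in the IgG-labelled libraries, 1.12, 1.18, 1.26 and 1.25 in the Staufen-labelled ones and 0.968, 0.848, 0.917 and 0.968 in the hnRNPab-labelled ones. Labelled Staufen was above both other groups, by 0.50 (SE 0.0838, adjusted p = 0.00240) and 0.38 (SE 0.0838, adjusted p = 0.00222). klhl36 had 0.385, 0.258, 0.336 and 0.207 in the IgG-labelled libraries, 0.363, 0.327, 0.317 and 0.248 in the Staufen-labelled ones and 0.677, 0.461, 0.417 and 0.416 in the hnRNPab-labelled ones, a difference of 0.74 between labelled hnRNPab and labelled IgG (SE 0.211, adjusted p = 0.00929). The klhl36 groups were separate in this comparison. The otud1 ratio was 0.725 to 0.843 in the hnRNPab-labelled libraries and 0.9 to 0.985 in the Staufen-labelled ones, a log2 difference, Staufen minus hnRNPab, of 0.28 (SE 0.0811, adjusted p = 0.0112), and the rnf121 ratio was 1.52 to 1.73 and 1.29 to 1.48 in the same order, a difference of -0.25 (SE 0.0816, adjusted p = 0.0230). The rnf121 call was lost without Staufen 2, Staufen 3 or hnRNPab 4, with an adjusted p of up to 0.0673, and the replicate block gave 0.00144. For mylip, whose .L copy has few reads, the ratio was 0.0308 to 0.0439 in the IgG-labelled libraries and 0.0206 to 0.0329 in the hnRNPab-labelled ones. Its difference of -0.51 (SE 0.190, adjusted p = 0.0358) was lost with log2(CPM + 0.1) (-0.39, adjusted p = 0.122) and without any of IgG 1, 2 or 4 or hnRNPab 1, 3 or 4 (adjusted p of up to 0.108), and the replicate block gave 0.00170.

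**Figure D4:**
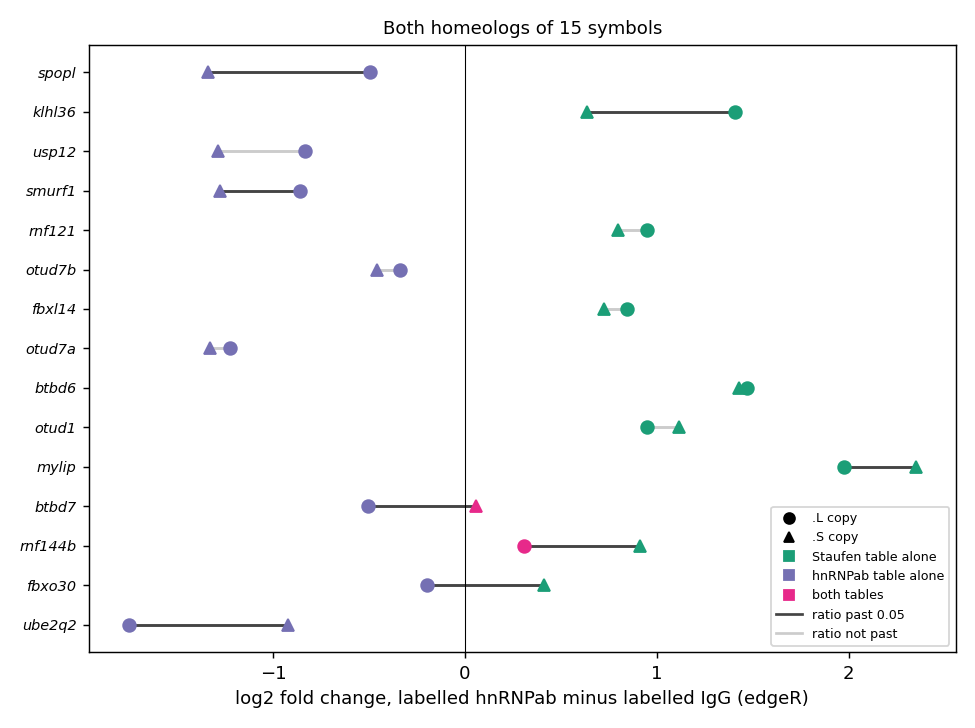
Log2 fold change of the .L copy (circles) and the .S copy (triangles) of 15 of the 16 pairs in labelled hnRNPab minus labelled IgG, with colours for the deposited table and dark lines where the ratio passed the limma threshold. Both copies lie on the same side of 0 in most pairs, and those of fbxo30 and btbd7 on opposite sides. Of these, fbxo30.L (-0.20, edgeR adjusted p = 0.330) and btbd7.S (0.06, edgeR adjusted p = 0.816) were not called, so opposite directions are not shown. The table that lists a copy largely fixes its side.

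Of the other genes of the ubiquitin system, 31 have a name in the deposited tables. In the hnRNPab-labelled libraries against the IgG-labelled ones, 14 of the 31 were higher and 11 lower, and in labelled Staufen against labelled IgG 2 were higher and 5 lower (7 and 13 with the replicate block). Of all genes, 16.3% and 17.4% were higher and lower in the first of these comparisons and 4.45% and 3.33% in the second (39.4% in either direction with the block). Between labelled Staufen and labelled hnRNPab, 8 were higher and 12 lower, beside 16.5% and 16.3% of all genes. They too come from the authors' tables. Of the anaphase-promoting complex, anapc10.S (2.21), anapc10.L (2.18), cdc27.S (0.87) and cdc27.L (0.74) rose in labelled hnRNPab against labelled IgG on the log2 scale, and all 4 are in the Staufen table alone. Anapc10 helps the complex bind its substrates and Cdc27 is a scaffold subunit that binds the activators. The deubiquitinase gene atxn3.L (2.12) and the HECT ligase gene hace1.L (2.10) rose as well. mdm2.L, the ligase of p53, fell by 1.70, the proteasome activator gene psme3.S by 1.46, the ligase gene zfp91.S by 1.44 and arih1.S, a partner of cullin ligases, by 1.31. vhl.L, the receptor of hypoxia-inducible factor, differed by -0.50 (adjusted p = 0.148, or 0.000886 with the block) and vhl.S by -0.01 (adjusted p = 0.979).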

How the data were processed

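RNA from 12 libraries (4 each labelled IgG, Staufen and hnRNPab) was sequenced as paired reads. Per gene, the authors deposited unnormalized counts in whole numbers. The tools listed in the submitters' processing notes are STAR 2.6.1b, with HTSeq 0.9.1 and edgeR beside it. For build, annotation and strand the answer is "not given in the sources used here", so overlapping and antisense genes are uncertain. The authors' deposited tables hold log2 fold changes, log2 CPM, an F score and p-values with adjusted p-values, per the file headers. Gene names came only from these tables, and 96 of the 101 member names are in the reference gene table.

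Lines that name no gene (reads outside exons, 11% to 19.6%, and reads shared between genes, 0.521% to 0.791%) stayed out of library sizes. So did alignments that were not unique, which these percentages leave out. They ran from 5352840 in Staufen 2 to 10014955 in IgG 4, and their part in the homeolog ratios and the klhl15.L entries was not tested. Counts were tested with edgeR 4.0.16 in R 4.3.3: TMM, filterByExpr (20803 of 51061 genes), 1 fit of group over all 12 libraries, quasi-likelihood F tests, and p-values adjusted by Benjamini-Hochberg over all genes, with a threshold of 0.05. Homeolog ratios were tested with limma 3.58.1 on log2(CPM + 0.5). The closing section gives the effect of the alternatives. Floors of 3 counts cover counting error only.

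Replicate numbers come from the sample titles. Deviations from the group means correlated at 0.783 to 0.875 in the 12 pairs of libraries across groups with the same number and at -0.508 to -0.0593 in the 36 pairs across groups with different numbers, so the numbers were taken to pair the libraries. The main fit of group leaves this pairing out, so its SEs and adjusted p-values include the spread between numbers. In labelled Staufen minus labelled IgG it called 7 members higher and 16 lower, against 20 and 45 with the number as a block. A difference that did not pass in the main fit can therefore be the same in all pairs.

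In every comparison, values in each library were given for the 6 largest called rises and falls whose mean reached 5 CPM and whose groups were separate, for the 5 largest deposited fold changes of each table, for up to 5 members in both tables, and for homeolog pairs in different tables or past the threshold. Other members were named by family. Results for some members are counted in totals and not reported here by name. Some outside this rule (such as usp13.L, socs1.S, wwp1.L, trim33.S and mib1.S) were chosen after their values were seen. The members, families, lists and tests were chosen with earlier results of these data known. No protein, promoter or target sequence is shown. Apart from the homeolog ratios, levels were not compared between genes because transcript lengths were not used here. The ratios were compared between groups only.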

Additional observations from a re-analysis of the deposited data

Results flagged for a closer look

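Within a group of 4 libraries, a value was set apart where its gap to the nearest other library was large against the range of the group, by Dixon's 95% limit. This held for 23 of the 303 sets of 1 member in 1 group, where chance flags about 1 in 20. Of the 23, 6 were in IgG 1, 5 in Staufen 1 and 5 in hnRNPab 1, and the cause was not tested. Values below are TMM-scaled CPM.

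In IgG 1, btbd8.L was at 77.3 against 148 to 159.7 in the other libraries labelled IgG, ube2q2.L at 209 against 268 to 278, ube2q2.S at 142 against 195 to 206, smurf1.S at 288 against 376 to 393, and klhl20.L at 199 against 208 to 209, while fbxw8.L was high at 47.9 against 30.2 to 31.9. In Staufen 1, fbxo30.L was at 90.1 against 104 to 106, smurf1.L at 203 against 256 to 258 and usp25.L at 35.3 against 43.4 to 44.3. There rnf121.L was high at 120.6 against 84.0 to 85.6, and rnf144b.S at 11 against 7.62 to 8.17. In hnRNPab 1, usp13.L was at 38.0 against 67.8 to 69.3, usp36.S at 29.7 against 36.6 to 37.7, spopl.S at 38.4 against 56.0 to 56.7 and mib1.S at 70.8 against 80.3 to 81.5, while klhl36.L was high at 32.6 against 21.7 to 23.4.

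The other 7 were spread. trim62.L was at 26.9 in IgG 2 against 22.2 to 22.9, rnf144b.L at 18.9 in IgG 3 against 25.6 to 26.0, and klhl15.L (gene14232) at 60.8 in IgG 4 against 70.4 to 71.5. In Staufen 3, kbtbd2.L was at 329 against 300.2 to 304 and usp12.L at 9.0 against 13.1 to 13.8. In Staufen 4, fbxo33.S was at 88.7 against 129 to 136 and fbxw4.L at 26.3 against 30.5 to 30.8.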

How the results depend on the processing

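No called difference of a member reversed under any alternative run. Labelled Staufen minus labelled IgG moved most: against 7 higher and 16 lower members, the replicate block gave 20 and 45, no filter on low counts 9 lower, a fit of these groups alone 4 higher, and leaving out the 3 libraries numbered 1 (added after seeing the data) 26 lower, or 17 and 44 with the block. Leaving out 1 library at a time gave 3 to 8 higher and 7 to 21 lower. The counts were 4 higher without IgG 2, IgG 4 or Staufen 2 and 3 without Staufen 3, and 7, 9, 10 and 8 lower without IgG 2, IgG 3, IgG 4 and Staufen 2. DESeq2 1.42.0 called 10 and 23. Apart from those with the block, the same fits gave 45 to 48 higher and 30 to 37 lower for labelled hnRNPab minus labelled IgG, and 22 to 27 higher and 38 to 47 lower for labelled Staufen minus labelled hnRNPab. Without the block, homeolog ratios were called for 3 to 5, 8 to 10 and 7 to 10 member pairs in the 3 comparisons, with 3 in the first without IgG 2, IgG 4, Staufen 1 or Staufen 3. Of 303 member differences, the replicate block brought 74 past the threshold and ended no call, DESeq2 brought 15, no filter ended 14 calls, a fit of the compared groups alone ended 12 and library size scaling without TMM 7. With RLE factors or a mean of at least 1 CPM none changed. The block moved the count of calls by over 1.5 times in no other comparison (56 and 41, then 35 and 56). A deposited log2 fold change of at least 1 left 42, 30 and 5 members for Staufen, hnRNPab and both tables. Members of low level, such as rnf165.L near 1 CPM, have the widest errors. The causes of these shifts were not tested.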
